A study of Mus musculus with 6 samples.

Results

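Ldhb, Aldoc, Pdk1 and Gpd1 encode enzymes that carry out or regulate steps of glycolysis, of lactate and pyruvate use, or of the branch to glycerol 3-phosphate. These 4 genes were taken by symbol from the 3257 genes analysed of the authors' deposited table. They were chosen by symbol with the knockout and WT values of these same libraries in view, in which all 4 were lower, so their difference between the groups is given as a description, with no test. The RNA came from cultured primary Sertoli cells of mice, somatic cells that line the seminiferous tubules and nurse developing germ cells. Wild-type (WT) cells of C57BL/6 mice received an empty plasmid by infection, in 3 libraries. UXT KO cells came from knockout animals on the same background and received a viral construct with Cre recombinase, also in 3 libraries. UXT (also ART-27), related to the prefoldin subunits, binds the androgen receptor, and the comparison asks which transcripts differ without it. Both groups were grown in the same medium and enriched for Sertoli cells by differential plating. The age of the mice and the driver of Cre were not given in the labels. Only the knockout cells carried Cre, so the effects of losing UXT and of the Cre construct cannot be told apart. Whether replicates were separate animals or separate cultures is not in the labels, so the SDs and p-values measure the spread between libraries, which may be technical. The transcript of Uxt itself was not analysed here, so the genotype was not checked from these values.

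Sertoli cells take up glucose, run it through glycolysis and export much of the resulting lactate, which developing germ cells use as fuel. Aldolase cleaves fructose bisphosphate in the upper part of glycolysis, and lactate dehydrogenase interconverts pyruvate and lactate at its end. Pyruvate dehydrogenase kinases switch off the complex that feeds pyruvate into mitochondria. Cytosolic glycerol 3-phosphate dehydrogenase draws a glycolytic intermediate off towards glycerolipids and reoxidizes NADH. Both Pdk1 and Aldoc are textbook targets of the hypoxia-inducible transcription factors (HIF).

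All 4 are protein-coding genes (GRCm38.p6, the RefSeq annotation). Ldhb (gene ID 16832) lies on the minus strand of chromosome 6 from 142490249 to 142507957, and its principal GENCODE transcript has 8 exons. Aldoc (gene ID 11676) lies on the plus strand of chromosome 11 from 78323073 to 78327781, with 9 exons. Pdk1 (gene ID 228026) lies on the plus strand of chromosome 2 from 71873215 to 71903858, with 11 exons. Gpd1 (gene ID 14555) lies on the plus strand of chromosome 15 from 99717587 to 99725014, with 8 exons. An antisense gene, Gm16537, overlaps Gpd1 on the opposite strand, and the use of strand in counting was not given in the sources used here, so the value of Gpd1 is uncertain to that extent. Ldhb has an annotated pseudogene copy, Ldhb-ps on chromosome 19, which could share reads with it.

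RefSeq promoters were matched for 3 of the 4 members, Ldhb, Aldoc and Pdk1. They are shown because these transcripts were lower together, and a reader can place the motifs in them. Each line gives the 250 bases before the first listed start site, 5′ to 3′ on the gene's strand, and capitals mark each GC box, each CCAAT box and each GCGTG core, spelled out below the lines. The windows are chr6:142507958-142508207 on the minus strand for Ldhb, chr11:78322823-78323072 on the plus strand for Aldoc and chr2:71872974-71873223 on the plus strand for Pdk1.
Ldhb: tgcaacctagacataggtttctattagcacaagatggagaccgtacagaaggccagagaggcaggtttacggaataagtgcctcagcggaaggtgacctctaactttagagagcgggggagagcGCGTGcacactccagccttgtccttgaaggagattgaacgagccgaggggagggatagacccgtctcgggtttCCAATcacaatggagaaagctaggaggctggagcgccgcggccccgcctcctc
Aldoc: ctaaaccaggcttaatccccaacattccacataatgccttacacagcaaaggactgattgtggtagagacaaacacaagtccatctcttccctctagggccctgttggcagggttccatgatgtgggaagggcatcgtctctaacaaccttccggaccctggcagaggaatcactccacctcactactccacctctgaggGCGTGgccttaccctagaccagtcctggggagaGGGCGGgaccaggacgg
Pdk1: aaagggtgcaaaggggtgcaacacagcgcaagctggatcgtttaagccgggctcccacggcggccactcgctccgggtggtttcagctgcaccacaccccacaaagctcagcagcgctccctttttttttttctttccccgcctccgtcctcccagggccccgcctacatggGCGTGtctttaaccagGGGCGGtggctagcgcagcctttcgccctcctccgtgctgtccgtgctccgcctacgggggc
Motifs were searched as exact letters on both strands, over these bases and the 50 after the start. The hypoxia response element core was searched as ACGTG. Its other form, GCGTG, was added after the sequences were seen. ACGTG was found at Aldoc alone among the 3 genes, on the opposite strand, 27 to 31 bases after the first transcribed base. That site is shown with its flanks on the gene's strand, in capitals for the core read on the opposite strand (chr11:78323090-78323114).
Aldoc site: cccagggagtCACGTagctctgcgg
Of the 32851 mouse promoters of the same length, 19.6% held ACGTG. The form GCGTG was found once at Ldhb, in 2 places each at the first start sites of Aldoc and Pdk1, and once at a second listed start site of Aldoc. Of all promoters 32.4% held it. The E-box, with the letters CACGTG, holds the first of these cores within it and was in none of the 3 windows and in 7.15% of all promoters. GGGCGG was found once at Aldoc and in 2 places at Pdk1, and in 35.7% of all promoters. CCAAT was found at Ldhb alone of the 3, and in 37.4% of all promoters. TGACCT, a nuclear receptor half-site, was at Ldhb and in 16.3% of all promoters. AGAACA, a half-site of the androgen and glucocorticoid receptors, was in none of the windows at the first start sites, stood in 2 places at the second listed start site of Pdk1, and was in 19.0% of all promoters. TATAAA, the TATA box, was in none of the members' windows and in 13.6% of all promoters. Such a match is a description of letters, and binding was not measured here.

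The values per library were deposited on a log2 scale, with no counts, so sequencing depth is unknown. Over all 3257 genes the WT libraries had medians of 9.15 to 9.18, and the knockout medians were 8.82 to 8.91. The values per library understate the deposited folds. With genes split in 4 classes by mean value, the library difference was 0.24 of the deposited log2 fold of the authors in the lowest class and 0.65 in the highest (medians). Fold sizes below are therefore those of the authors' deposited table, and the values per library show the spread. Every gene of this table had a fold of at least 1.5 on these same libraries. The authors' own adjusted p-values reached 0.0499 at most, so each gene had also passed their significance cut already. The limma calls are therefore not independent evidence of a difference. Adjusted p-values from limma, taken over genes selected in this way, do not control false calls and are given as descriptions. Of the 3257 genes 67.5% were called lower and 32.1% higher by limma, and 67.9% were lower in the authors' deposited table. In 65.8% of all genes the 3 knockout values all lay below the 3 WT values, and in 31.7% all lay above. Groups that do not overlap were thus the rule in this table. Values were not set per transcript length, so levels are not compared between genes.

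Ldhb encodes the H subunit of lactate dehydrogenase, the subunit typical of heart and other oxidative tissues. Its log2 values were 12.56, 12.73 and 12.71 in WT libraries 1, 2 and 3, and 11.11, 11.34 and 11.11 in knockout libraries 1, 2 and 3. The 3 knockout libraries all lay below the WT libraries, and the nearest values of the groups were 1.22 apart. The means were 12.67 ± 0.10 in WT and 11.18 ± 0.13 in knockout cells (SD, n = 3 each), a difference of -1.48 ± 0.09 (SE). Ldhb was 4.85-fold lower in the authors' deposited table, the 309th largest of the 2210 falls there. Its difference was 12.8 times the SD between replicates, the widest separation among the 4 members.

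Aldoc encodes aldolase C, an isoform best known from brain. Its log2 values were 8.88, 8.85 and 8.52 in WT libraries 1 to 3, and 8.08, 7.91 and 7.59 in knockout libraries 1 to 3. The groups did not overlap, but the lowest WT value, in library 3, was only 0.44 above the highest knockout value, in library 1. The means were 8.75 ± 0.20 in WT and 7.86 ± 0.25 in knockout cells (SD, n = 3 each), a difference of -0.89 ± 0.15 (SE). In the authors' deposited table Aldoc was 3.03-fold lower.

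Pdk1 encodes a kinase that inhibits the pyruvate dehydrogenase complex. The WT libraries 1 to 3 had log2 values of 12.01, 12.07 and 11.81, and the knockout libraries 1 to 3 had 11.18, 11.21 and 10.90. Library 3 was the lowest of both groups, and the groups lay 0.60 apart at their nearest. The means were 11.96 ± 0.14 and 11.10 ± 0.17 (SD, n = 3 each), a difference of -0.87 ± 0.11 (SE). Pdk1 was 2.50-fold lower in the authors' deposited table, the smallest fold of the 4 members and the 963rd in size among the 2210 falls.

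Gpd1 encodes the cytosolic glycerol 3-phosphate dehydrogenase, abundant in fat and muscle. Its log2 values were 7.30, 7.84 and 7.51 in WT libraries 1 to 3, and 6.26, 6.49 and 6.49 in knockout libraries 1 to 3. WT library 2 stood highest, and all knockout values were below all WT values, with 0.81 between the nearest. The means were 7.55 ± 0.27 and 6.41 ± 0.13 (SD, n = 3 each), a difference of -1.14 ± 0.14 (SE). Gpd1 was 6.56-fold lower in the authors' deposited table, the largest fold of the 4 members and the 156th of the 2210 falls. On the log2 scale the difference between libraries was 0.42 of that fold for Gpd1 and 0.56 for Aldoc, beside 0.65 for Ldhb and 0.66 for Pdk1. All 4 members were at least 2-fold lower in the authors' deposited table, as were 44.4% of all genes, and Ldhb and Gpd1 at least 4-fold, as were 13.5%. The order of the members differed between the measures: Gpd1 led by deposited fold and Ldhb by difference of library values. All 4 members also stayed lower when libraries were rescaled. After quantile normalization, which moved the median difference of all genes up by 0.33 on the log2 scale, the differences were -1.25 for Ldhb, -0.46 for Aldoc, -0.70 for Pdk1 and -0.70 for Gpd1.

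**Figure D1:**
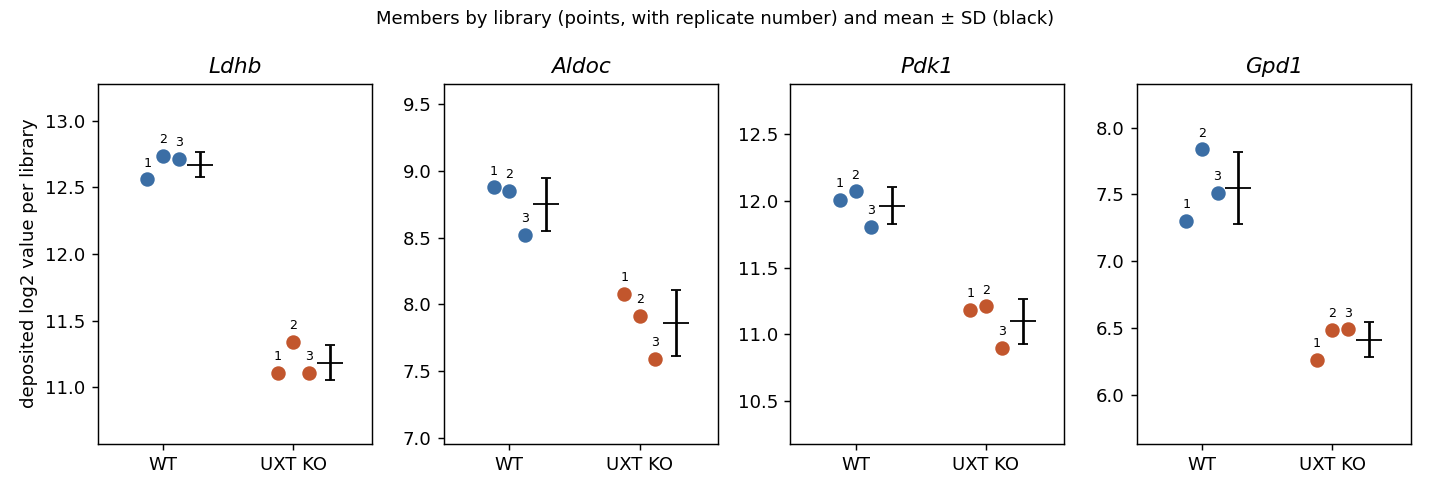
Deposited log2 value of each member (vertical axis, same span in every panel) in the 3 WT (blue) and 3 UXT KO (orange) libraries, with replicate numbers; black marks are mean ± SD. The groups do not overlap in any panel, with the widest gap for Ldhb (1.22) and the narrowest for Aldoc (0.44). The groups also did not overlap in most other genes of the table: 65.8% of all genes lay apart with the knockout lower and 31.7% with it higher.

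**Figure D2:**
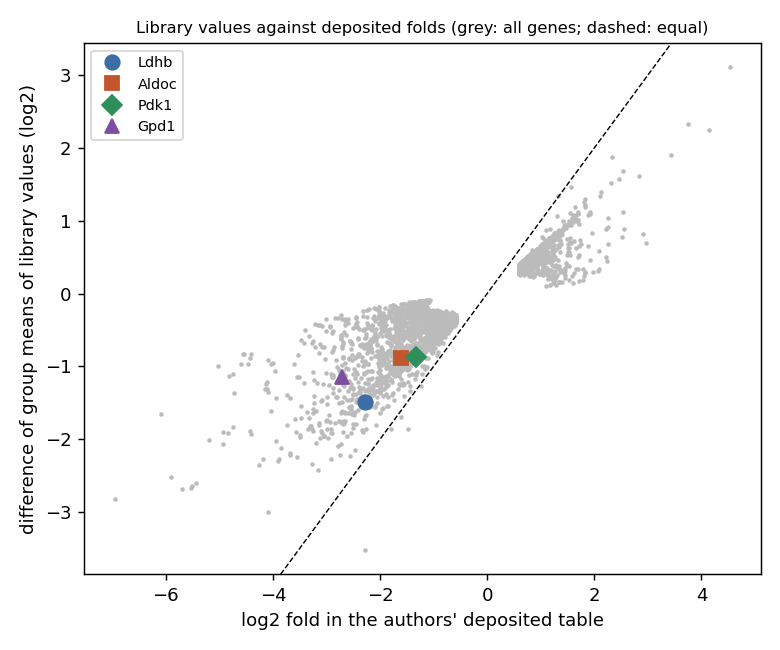
Difference of group means of the library values (vertical, log2) against the log2 fold in the authors' deposited table (horizontal) for all 3257 genes, with the 4 members in colour and a dashed line of equality. Gpd1 has the largest deposited fold of the members, while Ldhb has the largest difference of library values.

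Replicates of a group differed little for Ldhb and more for Aldoc and Gpd1. The pooled SD between replicates was 0.12 for Ldhb, 0.16 for Pdk1, 0.21 for Gpd1 and 0.22 for Aldoc, beside a median of 0.11 over all genes. Among the 814 genes in the same of these 4 expression classes, 54.5% had a smaller SD than Ldhb and 85.4% a smaller SD than Aldoc. The share was 73.8% for Pdk1 and 82.7% for Gpd1. Aldoc and Pdk1 deviated alike within the groups: in WT library 3 they lay 0.23 and 0.16 below their group mean, and in knockout library 3 they lay 0.27 and 0.20 below it. Ldhb and Gpd1 did not share this pattern, and both were lowest in library 1 of the WT group and of the knockout group. For Ldhb, knockout libraries 1 and 3 were nearly equal, with deviations of -0.078 and -0.076. Over all genes the deviations of libraries with the same number correlated at 0.18 or less. The labels do not say whether such libraries share an origin, so the meaning of a shared number is unknown.

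**Figure D3:**
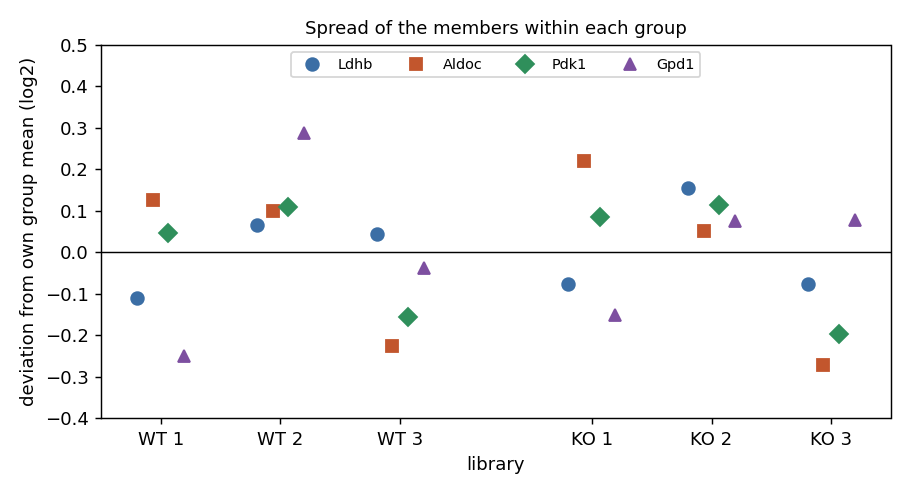
Deviation of each member from the mean of its own group (vertical, log2) in each of the 6 libraries (horizontal). Aldoc and Pdk1 lie below 0 in library 3 of both groups, by 0.16 to 0.27, while Ldhb and Gpd1 do not move with them.

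Likeness of profiles was measured as the root mean square difference over the 6 libraries, after subtracting the WT mean of each gene. The difference between the groups stays in this measure, so genes with near differences come out alike. That difference was -0.89 for Aldoc and -0.87 for Pdk1, beside -1.48 for Ldhb and -1.14 for Gpd1. Aldoc and Pdk1 were alike to within 0.08 on the log2 scale, whereas the other pairs of members lay 0.28 to 0.47 apart. The same 3 genes had the profiles most like both Aldoc and Pdk1: Cpne8, which encodes a copine, Crabp2, a retinoic acid binding protein, and Fgf11, a fibroblast growth factor family member. Cpne8 lay 0.06 from Aldoc and 0.05 from Pdk1. The differences of library values were also near, at -0.88 for Cpne8, -0.86 for Crabp2 and -0.82 for Fgf11. In the authors' deposited table Cpne8 was 2.65-fold, Crabp2 2.48-fold and Fgf11 2.995-fold lower. The profiles most like Ldhb were those of Stc1 (0.10), a secreted glycoprotein gene, and of Sox18 and Cldn5 (0.10 each), a transcription factor and a tight junction protein of endothelial cells. Those of Limch1 (0.07), Ctnna2 (0.09) and Gm867 (0.09) were most like Gpd1. Because the values per library understate folds the most for genes with low values, likeness on this scale is not likeness in fold: Cldn5 was 26.5-fold and Sox18 16.5-fold lower in the authors' deposited table, against 4.85-fold for Ldhb.

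Other genes of glycolysis in the table were lower with 1 exception. Of 36 listed glycolysis genes, 15 were in the table. Besides Aldoc, 13 were called lower and 1 higher by limma, with a background of 67.5% lower over all genes. The median signed log2 fold in the authors' deposited table was -0.85 for these 14 genes and -0.88 for all genes. The median of all genes spans 67.9% lower and 32.1% higher genes, so these medians do not compare the sizes of falls. Glucose entry genes fell: the transporter genes Slc2a1, Slc2a3 and Slc2a8 were 1.76-fold, 1.84-fold and 1.61-fold lower in the authors' deposited table. The hexokinase genes Hk1 and Hk3 were 1.72-fold and 3.94-fold lower there.

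At the step that commits sugar to glycolysis, the phosphofructokinase genes Pfkl and Pfkp were 1.70-fold and 1.78-fold lower in the authors' deposited table. The genes for the bifunctional enzymes that set the phosphofructokinase activator fructose 2,6-bisphosphate went different ways. Pfkfb3 fell from 12.17 ± 0.06 in WT to 11.51 ± 0.06 in knockout cells (SD, n = 3 each; limma adjusted p = 6.27e-05), or 2.04-fold in the authors' deposited table. Pfkfb2 rose from 10.30 ± 0.06 in WT to 10.78 ± 0.03 in knockout cells (SD, n = 3 each; limma adjusted p = 0.000351), or 1.70-fold in the authors' deposited table. Pfkfb1 was 2.14-fold lower there, but its difference turned to 0.10 after quantile normalization and no longer passed. Below aldolase, Pgk1 was 1.54-fold and the neuronal enolase gene Eno2 2.50-fold lower in the authors' deposited table. Gapdhs, the glyceraldehyde phosphate dehydrogenase of sperm, was listed as 2.88-fold lower there, and its call was lost without WT replicate 2 or WT replicate 3. Under quantile normalization Gapdhs, Pgk1 and Eno2 no longer passed. When each library was centred on its median, Slc2a8, Hk1, Pfkl, Pfkp, Pfkfb1, Gapdhs and Pgk1 did not pass, and Gapdhs also changed sign.

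Of 33 genes for lactate and pyruvate, 13 were in the table. Besides Ldhb and Pdk1, 10 were called lower and 1 higher by limma, again beside 67.5% lower over all genes. The median log2 fold in the authors' deposited table was -1.002 for these 11 genes. Ldhd, a mitochondrial D-lactate dehydrogenase, fell from 7.58 ± 0.11 in WT to 6.49 ± 0.03 in knockout cells (SD, n = 3 each; limma adjusted p = 1.71e-05) and was 6.71-fold lower in the authors' deposited table, a larger fold than that of Ldhb. Among carriers of lactate, Slc16a3, the exporter MCT4, was 2.02-fold lower and Slc16a7, or MCT2, 1.86-fold lower in the authors' deposited table. Slc16a7 lost its call without KO replicate 1, and its difference turned to 0.14 after quantile normalization. The 2 chaperones that bring these carriers to the membrane differed in direction. Bsg, or basigin, fell from 16.24 ± 0.08 in WT to 15.57 ± 0.11 in knockout cells (SD, n = 3 each; limma adjusted p = 0.000278). Emb, or embigin, rose from 10.89 ± 0.12 in WT to 11.76 ± 0.24 in knockout cells (SD, n = 3 each; limma adjusted p = 0.000227). In the authors' deposited table Bsg was 2.003-fold lower and Emb 2.54-fold higher, and both kept their direction and call under each scaling.

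Around pyruvate, Pdpr, a regulator of the phosphatase that reverses Pdk1, was 1.71-fold lower in the authors' deposited table. Pcx, pyruvate carboxylase, was 1.74-fold and Pck2, mitochondrial phosphoenolpyruvate carboxykinase, 2.61-fold lower there. The mitochondrial malic enzyme gene Me3 was 4.57-fold lower in the authors' deposited table, and no longer passed after quantile normalization (limma adjusted p = 0.133). The alanine transaminase gene Gpt2 fell 2.28-fold in the authors' deposited table. Its relative Gpt was 1.84-fold lower there, but lost its call without KO replicate 3 and turned to 0.14 after quantile normalization. With libraries centred on their medians Pcx, Pdpr, Slc16a7 and Gpt did not pass, and Gpt changed sign. Of 24 genes for glycerol 3-phosphate and the NADH shuttles, the table held Gpd1 and Slc25a13, a mitochondrial aspartate-glutamate carrier that was 2.44-fold lower (limma adjusted p = 0.000305). The isoform partners Ldha, Aldoa, Pdk2, Pdk3, Pdk4, Gpd1l and Gpd2 were not analysed here, so a shift between isoforms could not be read from these values.

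**Figure D4:**
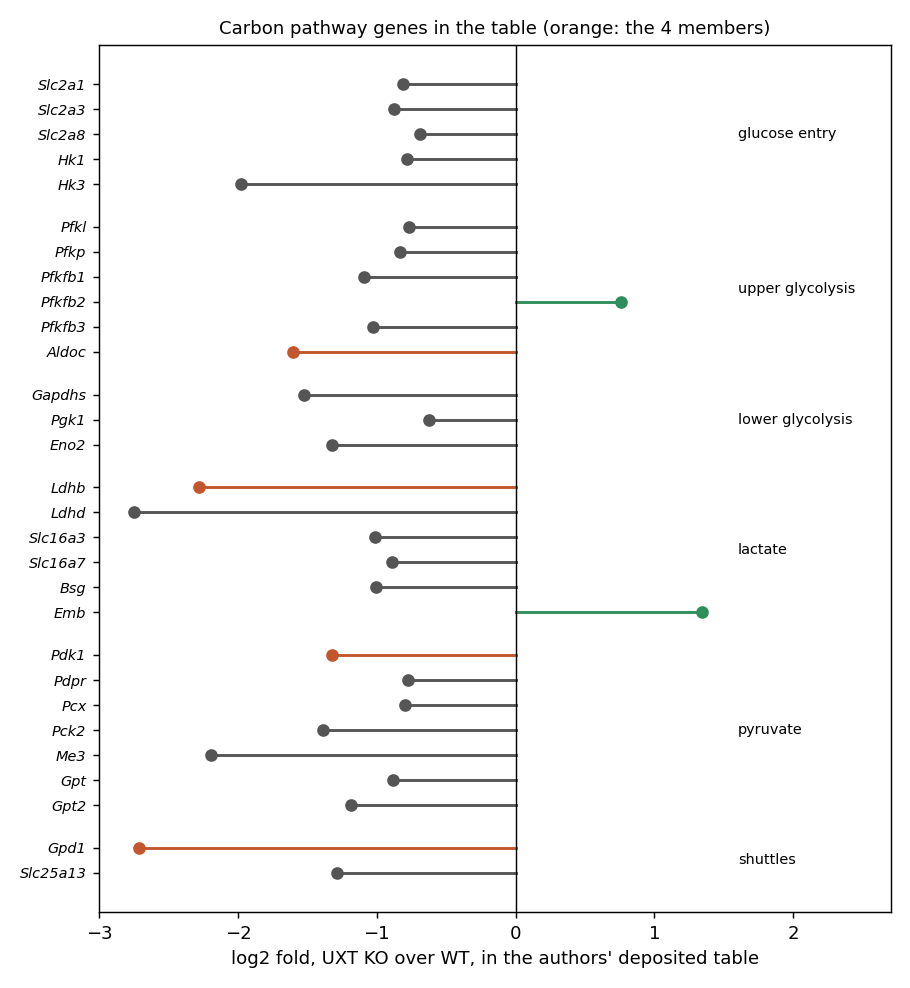
Log2 fold of knockout over WT in the authors' deposited table (horizontal) for genes of the 3 carbon lists found in the table, ordered by role (1 gene is not shown); members are orange, other lower genes grey and higher genes green. Emb and Pfkfb2 are the genes to the right of 0; of the genes shown, Pfkfb1, Slc16a7 and Gpt changed sign on the library values under quantile normalization, and Gapdhs and Gpt under median centring.

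Genes of the hypoxia response, to which Aldoc and Pdk1 belong, were mostly lower as well. Of 56 listed genes 32 were in the table, and besides the 2 members 29 were called lower and 1 higher by limma, beside 67.5% lower over all genes. After quantile normalization 22 of the 32, members included, were lower and 1 higher, beside 1143 lower and 1049 higher of all 3257. The list's median log2 fold in the authors' deposited table was -0.97 without the members. Nos2, the inducible nitric oxide synthase, was 10.1-fold lower, Car9, a membrane carbonic anhydrase, 6.12-fold and the lysyl oxidase Loxl2 4.19-fold lower in the authors' deposited table. Hmox1, heme oxygenase, rose 2.93-fold there. The transcript of the factor Hif1a itself was 15.32 ± 0.14 in WT and 14.83 ± 0.17 in knockout cells (SD, n = 3 each), called lower by limma (adjusted p = 0.0029), and was named after its values were seen. In this list the low library 3 seen for Aldoc and Pdk1 recurred. Of the 30 other genes, 63.3% were lowest in WT library 3 and 73.3% in knockout library 3, against 35.4% and 33.4% of all 3253 other genes. In both groups 16 (53.3%) were lowest there, against 12.3%. For 26 other genes of the carbon lists, some of them in both lists, these shares were 50%, 61.5% and 30.8%. The labels do not say whether libraries of the same number share an origin. What the recurrence of number 3 in both groups means is therefore unknown. These counts were made after the values were seen and use no difference between the groups. They carry no test because genes of a library are not independent. The oxygen supply of the cultures was not measured.

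Markers of several testis cell types moved with these genes. The counts below are limma calls, beside 67.5% lower over all genes. The summed level of a marker list is the log2 of its summed values in a library, each taken back to the linear scale. Of 31 Sertoli markers 21 were in the table, with 19 lower and 2 higher, and their summed level ranged from 18.1 to 18.4 in WT and from 17.5 to 17.7 in knockout libraries. All 22 macrophage markers in the table, of 27, were lower, with a summed level of 15.2 to 15.6 in WT and 13.9 to 14.1 in knockout libraries. All 22 endothelial markers in the table, of 25, were also lower, with summed levels of 14.1 to 14.3 in WT and 13.3 to 13.5 in knockout libraries. The 11 myoid markers in the table, of 15, were all lower and summed to 19.3 to 19.6 in WT and 18.9 to 19.0 in knockout libraries. The 9 fibroblast markers in the table, of 20, were all lower and summed to 20.5 to 20.7 in WT and 19.5 to 20.2 in knockout libraries. Of 7 Leydig markers in the table, of 20, 5 were higher, and their summed level was 15.9 to 16.1 in WT and 16.2 to 16.5 in knockout libraries. A sum is set mainly by genes with high values. The highest WT means were those of Clu for Sertoli, Lyz2 for macrophage and Eng for endothelial markers. Acta2 led for myoid, Col1a2 for fibroblast and Star for Leydig markers. The median log2 fold in the authors' deposited table was -3.81 for endothelial, -2.38 for macrophage and -1.63 for Sertoli markers. It was -1.20 for myoid, -1.08 for fibroblast and 1.01 for Leydig markers, beside -0.88 for all genes. After quantile normalization 13 of 21 Sertoli markers were called lower and 2 higher. The count lower was then 20 of 22 for macrophage, 21 of 22 for endothelial, 6 of 11 for myoid and 7 of 9 for fibroblast markers. Of the 7 Leydig markers 2 were lower and 5 higher. Over all 3257 genes 1143 were lower and 1049 higher. Of 21 adipocyte markers 3 were in the table. Fabp4 and Adrb3 were lower, like Gpd1, at 2.97-fold for Fabp4 and 2.71-fold for Adrb3 by the authors' deposited table, and Cebpa was 2.13-fold higher there. After quantile normalization Fabp4 and Adrb3 no longer passed by limma. Their summed level, in which Cebpa had the highest values, was 10.003 to 10.07 in WT and 10.5 to 10.8 in knockout libraries. Of 29 germ cell markers 4 were in the table, with 3 lower and 1 higher. Kit was 4.19-fold, Gapdhs 2.88-fold and Sycp3 2.73-fold lower and Uchl1 1.57-fold higher in the authors' deposited table, and after quantile normalization limma called 1 of the 4 lower and 1 higher. Their summed level, in which Uchl1 had the highest values, was 11.6 to 12.1 in WT and 12.1 to 12.4 in knockout libraries. Alas2, the single red blood cell gene in the table of 12 listed, was at 8.40 to 8.71 in WT and 6.57 to 6.85 in knockout libraries. No marker in the table was listed at 0. In bulk RNA fewer cells of a type and less RNA per cell cannot be told apart, and the part of other cell types in the values of the 4 members was not tested.

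**Figure D5:**
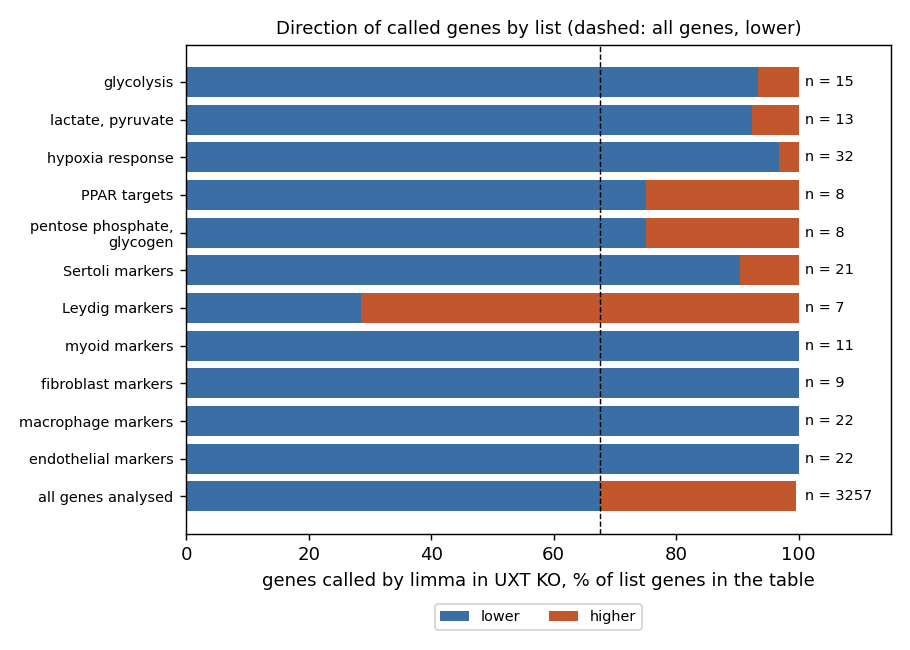
Percent of each list's genes in the table that limma called lower (blue) or higher (orange) in UXT KO, with the number of genes at the right; the dashed line is the 67.5% called lower among all genes. The blue bars of all lists drawn except the Leydig markers reach past the line. Those of the PPAR targets and of the pentose phosphate and glycogen genes stand nearest to it, at 75%. The bars of glycolysis, lactate and pyruvate, hypoxia and PPAR targets include members, which were chosen as lower. Without the members the shares lower were 92.9%, 90.9%, 96.7% and 71.4% in that order. After quantile normalization 1143 of all 3257 genes were called lower, or 52.1% of called genes, beside 67.8% before it. The counts lower, members included, were then 9 of 15 for glycolysis, 9 of 13 for lactate and pyruvate and 22 of 32 for hypoxia.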

How the data were processed

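The authors deposited 1 table of selected genes, with values of 6 libraries on a log2 scale, with a normalization and transformation that no label or header states. FastQC, STAR, DESeq2 and mm10 were listed per the submitters' processing notes, with no version given. The deposited signed fold score, log2 fold change, p-value and adjusted p-value were the authors' own. In all, 4 rows, of 2 symbols that stood on 2 rows each, were left out. Groups came from the sample titles. All 3257 genes were fitted with limma 3.58.1 (R 4.3.3; trend in the prior variance), with Benjamini-Hochberg adjustment of p over them (threshold 0.05). The authors had selected these genes by fold and significance on the same libraries, so this adjustment does not control false calls. The fit was tested on simulated data. The members and all lists were chosen with earlier results of these data known. Named genes were the members, the other carbon list genes in the table, the 3 largest folds in each direction of other lists, and the 3 most similar profiles. For Sertoli, Leydig, myoid, macrophage, endothelial and fibroblast markers the largest folds were not named. Those lists are given by counts, medians, summed levels and the gene with the highest WT mean. Hif1a was named outside this rule. In the glycolysis list 1 gene is counted but not reported by name. A planned comparison of protein sequences was not made. Marker lists covered Sertoli, germ, Leydig, myoid, macrophage, endothelial, fibroblast, red blood and fat cells.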

Additional observations from a re-analysis of the deposited data

How the results depend on the processing

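All 4 members stayed lower in the knockout under each alternative that gave a value. Centring each library on its median over the table gave differences of -1.19 for Ldhb, -0.59 for Aldoc, -0.57 for Pdk1 and -0.84 for Gpd1, and moved the median difference of all genes up by 0.30 on the log2 scale. Quantile normalization gave -1.25, -0.46, -0.70 and -0.70 in the same order. Leaving out 1 library at a time gave -1.56 to -1.45 for Ldhb, -1.002 to -0.75 for Aldoc, -0.94 to -0.77 for Pdk1 and -1.27 to -0.997 for Gpd1. Over all genes 2200 were called lower and 1044 higher. The count lower was 1024 after centring (47.9% of called genes, beside 67.8%), 1143 after quantile normalization, and 1438 with a deposited fold of at least 2, which also left 302 higher. Without 1 library it was 2085 to 2158 lower and 1014 to 1034 higher. The glycolysis list had 14 lower genes, Aldoc included, against 6 after centring, 9 after quantile normalization and 7 with a deposited fold of at least 2. Leaving out genes with a mean log2 value under 7 removed Gpd1 itself, which left 1 lower gene in the glycerol phosphate list. Without 1 library the lists, members included, had 13 to 14, 11 to 12 and 2 lower genes. The replicate number as a block gave 2207 lower and 1045 higher genes and changed no call among the pathway genes. Deviations of libraries with the same number correlated at 0.18, -0.07 and -0.0039 for replicates 1, 2 and 3. Correlations over all genes cannot show whether such libraries share an origin, which the labels do not state. No counts were used, so the limits that depth sets are unknown.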

Other observations

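Neighbouring carbon pathways were thinly represented in the table. Of 32 genes of the pentose phosphate pathway and glycogen, 8 were in the table, with 6 lower (75%) and 2 higher by limma, a share near the 67.5% lower over all genes. Pgd, an NADPH-producing enzyme of the pentose phosphate pathway, was 1.82-fold higher and Phka2, a regulatory subunit of phosphorylase kinase, 1.65-fold higher in the authors' deposited table. Phkg1 was 2.65-fold lower, Ppp1r3b, which targets a phosphatase to glycogen, 2.42-fold and the glycogen synthase gene Gys1 1.75-fold lower in the authors' deposited table. After quantile normalization 2 of the 8 were lower and 2 higher. Of 17 genes for gluconeogenesis, fructose and polyols, 4 were in the table and all 4 were lower, led by the transporter gene Slc2a2 at 2.35-fold, Aldh1a1 at 2.07-fold and Tkfc at 1.68-fold in the authors' deposited table. After quantile normalization 3 of these 4 were lower. Of 21 genes of the citric acid cycle the table held Idh2 alone, at 1.55-fold lower in the authors' deposited table, and it no longer passed after quantile normalization.

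Of 33 targets of the PPAR receptors, to which Gpd1 belongs, 8 were in the table, with 6 lower and 2 higher by limma. Without Gpd1 the share lower was 71.4%, near the 67.5% of all genes. Besides Gpd1, the lipoprotein lipase gene Lpl was 6.62-fold and the transcription factor gene Creb3l3 5.38-fold lower in the authors' deposited table. Ucp2, a mitochondrial carrier, and Cpt1a, which admits fatty acids to mitochondria, were 1.69-fold and 1.54-fold higher there.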
